A study of Mus musculus with 6 samples.

Results

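The cyclic nucleotide phosphodiesterases described here are 10 genes (Pde1a, Pde1c, Pde2a, Pde3a, Pde3b, Pde4a, Pde4b, Pde4d, Pde7a and Pde8a), read through every probe set that the array's annotation assigned to exactly 1 of these symbols. The members are 10 of the 18193 genes with a probe set of their own, and their probe sets are 33 of the 45037 tested; 0 probe sets with several symbols included a member. The members had been proposed with the difference between the 2 genotypes in view, so that difference is given for each probe set as a description and supports nothing by itself. The GRK2+/- group held 3 hearts of mice heterozygous for a targeted allele of Adrbk1 (now Grk2, the G protein-coupled receptor kinase 2; line B6.129-Adrbk1tm1Mca/J, bred onto C57BL/6J for more than 20 generations), and the WT group held 3 hearts of wild-type C57BL/6J littermates. All mice were 9 months old, 1 Affymetrix array was hybridised per heart, and the labels name no drug treatment. The allele is inherited in all tissues and is not driven in cardiomyocytes only, and RNA came from the excised upper part of the heart with all its cell types.

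Phosphodiesterases hydrolyse the second messengers cyclic AMP and cyclic GMP, and so set how far and how long a signal from a beta-adrenergic or other receptor spreads inside a cell. Family members differ in substrate and control: PDE1 enzymes are activated by calcium and calmodulin, PDE2 is stimulated by cyclic GMP, PDE3 is inhibited by it, and PDE4, PDE7 and PDE8 act on cyclic AMP. In rodent cardiomyocytes PDE3 and PDE4 carry much of the hydrolysis of cyclic AMP near beta-adrenergic receptors and the calcium stores, and PDE4 activity is itself raised by protein kinase A, which cyclic AMP activates.

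Transcription of PDE4 genes is known to respond to cyclic AMP through the factor CREB. The stretches upstream of the annotated starts of the 3 PDE4 genes were read for the short CREB motif, TGACG or its reverse complement CGTCA. These genes were picked for display after their higher values in GRK2+/- hearts were seen, and CREB as a cause of those values was not tested. Shown are 250 bases before 1 start of Pde4b, 1 start of Pde4a and the 1 start listed for Pde4d, from RefSeq on GRCm38.p6, written 5′ to 3′ on the gene's strand with that motif in capitals.
Pde4b upstream window, chr4:102421305-102421554, plus strand: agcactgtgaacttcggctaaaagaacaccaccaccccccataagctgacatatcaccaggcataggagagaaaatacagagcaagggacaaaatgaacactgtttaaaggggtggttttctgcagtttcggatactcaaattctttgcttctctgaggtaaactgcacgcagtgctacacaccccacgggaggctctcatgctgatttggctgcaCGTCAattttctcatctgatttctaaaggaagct
Pde4a upstream window, chr9:21183851-21184100, plus strand: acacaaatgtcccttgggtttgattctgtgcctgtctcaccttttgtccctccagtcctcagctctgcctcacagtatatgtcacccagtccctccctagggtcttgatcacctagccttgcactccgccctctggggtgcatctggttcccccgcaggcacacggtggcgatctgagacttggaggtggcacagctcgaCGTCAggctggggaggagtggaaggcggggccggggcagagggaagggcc
Pde4d upstream window, chr13:108653927-108654176, plus strand: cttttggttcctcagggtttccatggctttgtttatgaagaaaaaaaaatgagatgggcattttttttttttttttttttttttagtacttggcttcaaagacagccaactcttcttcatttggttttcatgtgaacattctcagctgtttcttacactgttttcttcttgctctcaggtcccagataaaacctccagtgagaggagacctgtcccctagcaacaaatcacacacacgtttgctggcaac
The Pde4b and Pde4a windows were chosen because they hold the motif, which begins 34 bases before the start for Pde4b and 50 for Pde4a, and the Pde4d window holds none. Promoter windows were listed for 7 of the 10 genes, 21 windows in all, and 4 of them, in 4 genes (Pde1a, Pde4a, Pde4b, Pde8a), held the motif. Among all 32851 such windows 17.8% held one, and the full palindrome TGACGTCA, of which the short motif is a part, was in 1.55% of all windows and in 0 of the 21. Of the 4 Pde4b windows 1 held the short motif and 0 the palindrome, and of the 3 Pde4a windows 1 held the short motif. Such a match says only that these letters are present, and nothing in the files reports which start was used.

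Values are log2 brightness of a probe set, so a difference of 1 between arrays is a doubling. Levels of different probe sets were used to rank or bin them by brightness, and not to compare amounts of RNA. Array medians lay between 6.25 and 6.31, and the median level over all tested probe sets was 6.28. Cardiomyocyte markers (8 of 8 measured, all above that level) averaged 14.43 to 14.48 in GRK2+/- hearts and 14.36 to 14.42 in WT hearts. Of 5 atrial markers 3 had a mean level below the median probe set: Myl7 and Sln, at 5.49 to 5.81 in all 6 hearts, and Bmp10, at 5.99 to 6.32. The others lay above it in every heart, Myl4 at 7.03 to 7.27 and Nppa at 9.56 to 11.62. The level of Grk2 was not analysed here, so the genotypes rest on the labels. In the limma fit over all probe sets 0 of 45037 (0.0%) reached an adjusted p (Benjamini-Hochberg) under 0.05, the smallest being 0.103, and 5780 (12.8%) had an unadjusted p under 0.05. None of the 33 phosphodiesterase probe sets passed the adjusted threshold. With 3 hearts against 3 an exact permutation test of a single value cannot give a two-sided p below 0.1. Nothing in the labels beyond the heart number separates replicates. The limma p-values set each difference against the spread between these hearts, moderated by the spread over all probe sets. Each heart had its own array, so variation between hearts and between arrays cannot be told apart.

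Pde4b, which encodes a cyclic AMP phosphodiesterase of heart muscle, vessels and leukocytes, had the largest differences of the 10 genes. Its brightest probe set, 1422474_at, read 9.54, 9.76 and 9.54 in GRK2+/- hearts 1, 2 and 3, against 9.03, 8.99 and 8.93 in WT hearts 1, 2 and 3. The groups did not overlap: the lowest GRK2+/- heart lay above the highest WT heart. The means were 9.61 ± 0.13 in GRK2+/- hearts and 8.98 ± 0.052 in WT hearts (SD, n = 3 each), a difference of 0.63 ± 0.08 (limma's SE), or 1.55-fold. In whole tissue, more RNA per cell and more cells that express a gene cannot be told apart.

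A second Pde4b probe set, 1422473_at, read 8.87, 9.25 and 9.07 in GRK2+/- hearts, against 8.63, 8.52 and 8.51 in WT hearts. Again all GRK2+/- hearts were above all WT hearts, with heart 2 highest on both probe sets, and the difference was 0.51 ± 0.10, or 1.42-fold. Both probe sets were designed from 1 source sequence, so they are not independent readings of the gene. The dimmer 1442700_at read 5.75, 5.73 and 7.30 in GRK2+/- hearts, against 5.58, 5.64 and 5.18 in WT hearts. Here too the groups did not overlap. GRK2+/- heart 3 stood 1.84 above the WT mean while hearts 1 and 2 stood 0.29 and 0.26 above it, and the highest WT heart 0.17. The difference of 0.80 ± 0.35 was 0.28 without GRK2+/- heart 3. Like 1442700_at, whose mean level was 5.86, the 3 remaining probe sets lay below the median level. The groups overlapped on these 3, with differences of -0.071, 0.028 and 0.012.

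**Figure D1:**
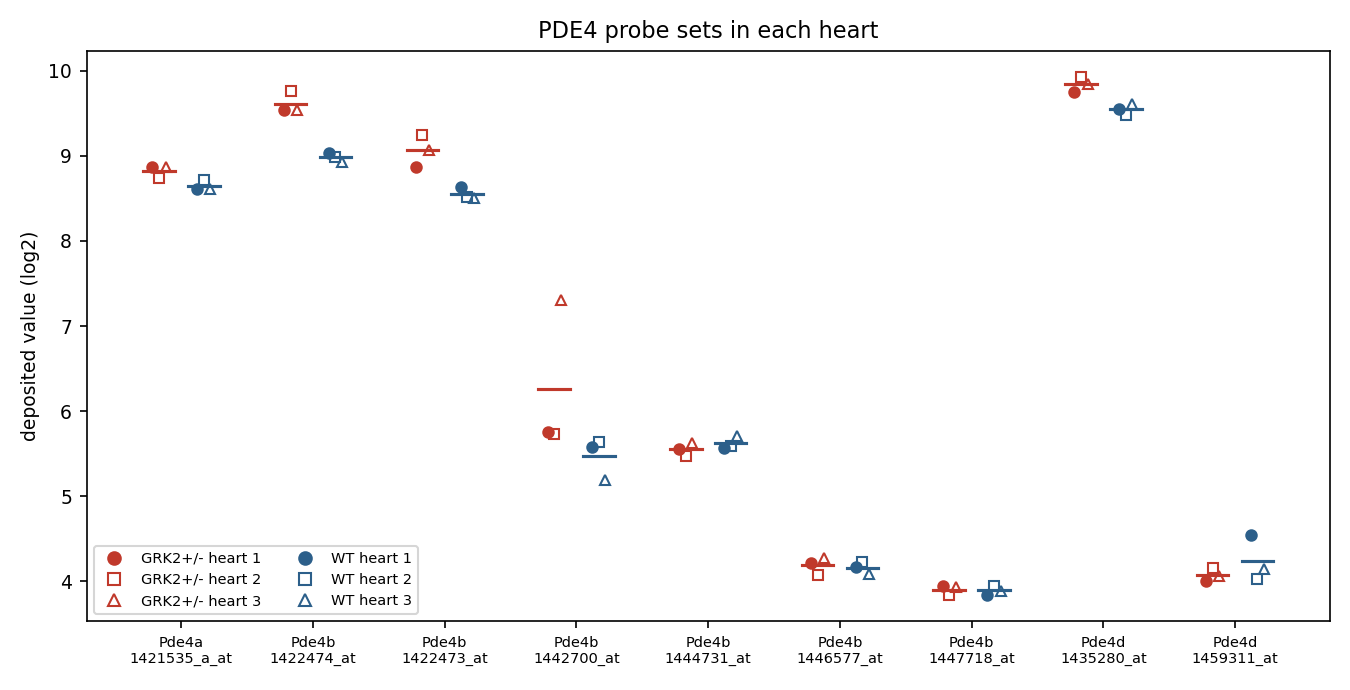
Deposited log2 value (vertical axis) of each probe set of Pde4a, Pde4b and Pde4d in each heart, GRK2+/- in red on the left and WT in blue on the right; symbols mark hearts and bars the means of 3. The 3 brightest Pde4b probe sets, the Pde4a probe set and the brighter Pde4d probe set show no overlap between groups. On 1442700_at, the dimmest of those 3, GRK2+/- heart 3 stands far above the other hearts, at 7.30.

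Pde4d encodes the PDE4 enzyme known to associate with the beta-adrenergic receptors and the ryanodine receptor. Its brighter probe set, 1435280_at, read 9.75, 9.93 and 9.85 in GRK2+/- hearts, against 9.56, 9.48 and 9.61 in WT hearts, without overlap. That is a difference of 0.30 ± 0.08, or 1.23-fold, with GRK2+/- heart 2 again the highest. Its other probe set, 1459311_at, near the bottom of the scale, read 4.00, 4.15 and 4.06 in GRK2+/- hearts, against 4.54, 4.03 and 4.14 in WT hearts. The groups overlapped there, and the difference of -0.17 ± 0.12 was -0.015 without WT heart 1, the 1 high value.

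Pde4a, the third PDE4 gene among the members, had 1 probe set, which read 8.86, 8.74 and 8.87 in GRK2+/- hearts, against 8.62, 8.72 and 8.61 in WT hearts. The groups did not overlap, but GRK2+/- heart 2 and WT heart 2 were close, at 0.096 and 0.073 above the WT mean. The difference was 0.18 ± 0.07, or 1.13-fold. GRK2+/- heart 2 was thus the highest of the 6 hearts on the bright Pde4b and Pde4d probe sets and the lowest GRK2+/- heart for Pde4a.

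Pde3a and Pde3b encode the cyclic GMP-inhibited enzymes, Pde3a being prominent in heart and vascular muscle and Pde3b in fat. The brightest Pde3a probe set, 1450284_at, read 7.46, 7.52 and 7.13 in GRK2+/- hearts, against 7.35, 7.11 and 6.98 in WT hearts. The groups overlapped, and the difference of 0.22 ± 0.12 was 0.34 without GRK2+/- heart 3. The dimmer 1431913_a_at pointed the other way without overlap, with 5.08, 5.17 and 5.05 in GRK2+/- hearts and 5.17, 5.34 and 5.42 in WT hearts, a difference of -0.21 ± 0.08. GRK2+/- heart 2 and WT heart 1 print alike, the first being lower in the third decimal. The third Pde3a probe set, made from the same source sequence as 1431913_a_at, overlapped (-0.077 ± 0.074). Pde3b read 8.54, 8.57 and 8.40 in GRK2+/- hearts, against 8.71, 8.33 and 8.34 in WT hearts, so the groups overlapped and WT heart 1 was the highest of all (difference 0.043 ± 0.11).

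Pde2a, whose enzyme links cyclic GMP to the breakdown of cyclic AMP and is abundant in endothelium, had 3 probe sets with levels above the median. The probe set 1447707_s_at read 9.88, 10.28 and 10.17 in GRK2+/- hearts, against 9.92, 10.15 and 9.82 in WT hearts, and overlapped (0.15 ± 0.12). The probe set 1452202_at read 8.83, 8.71 and 8.89 in GRK2+/- hearts, against 8.93, 8.94 and 8.93 in WT hearts, with all GRK2+/- hearts below all WT hearts and a difference of -0.13 ± 0.07. WT hearts were tight on that probe set (SD 0.0081). The third differed by -0.020 ± 0.069, so the 3 readings of Pde2a gave no common direction.

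Of the calcium- and calmodulin-activated enzymes, Pde1c is found in cardiomyocytes and Pde1a in fibroblasts and vessels as well. The brightest of 6 Pde1c probe sets, 1440374_at, read 8.89, 8.92 and 8.79 in GRK2+/- hearts, against 8.88, 8.85 and 8.76 in WT hearts, with overlap (0.034 ± 0.073). A second, 1444067_at, read 6.78, 6.85 and 6.84 in GRK2+/- hearts, against 7.17, 7.03 and 7.09 in WT hearts, without overlap (-0.27 ± 0.07, 1.21-fold higher in WT hearts). The other 4 overlapped, with differences of -0.12 to 0.011. Pde1a had probe sets at 0.052 ± 0.11 and, near the bottom of the scale, -0.13 ± 0.09, both with overlap.

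Pde7a, a cyclic AMP phosphodiesterase insensitive to the classical PDE4 inhibitor rolipram and best known in lymphocytes and muscle, was the 1 gene with several probe sets that all pointed the same way. All 7 differences were below 0, from -0.38 to -0.0078, and all 7 levels lay above the median. The direction was not firm on each: 1423313_at (-0.0078 ± 0.10) changed sign in 4 of 14 alternatives, and 1438041_at was 0.035 without GRK2+/- heart 2. The furthest, 1451839_a_at, read 8.11, 7.54 and 7.68 in GRK2+/- hearts, against 8.21, 8.10 and 8.16 in WT hearts. GRK2+/- hearts 2 and 3 were below every WT heart while heart 1 lay within their range, so the groups overlapped (difference -0.38 ± 0.13). On 1423314_s_at, made from the same source sequence as 2 others of the 7, values were 7.97, 7.15 and 7.47 in GRK2+/- hearts, against 7.71, 7.78 and 7.71 in WT hearts. Heart 1 was there the highest and heart 2 the lowest of the 6, and the difference of -0.20 ± 0.17 was -0.42 without GRK2+/- heart 1 and -0.0095 without GRK2+/- heart 2.

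None of the 7 Pde7a probe sets separated the groups. GRK2+/- heart 2 was the lowest of the 6 hearts on 5 of the 7 and heart 3 on the other 2, whereas heart 1 was the highest on 3. Averaged over the 7, GRK2+/- hearts 1, 2 and 3 stood at 0.079, -0.43 and -0.22 relative to the WT mean, and WT hearts at 0.0028, 0.025 and -0.028. The SD among GRK2+/- hearts exceeded that among WT hearts on all 7, at 0.16 to 0.42 against 0.025 to 0.099. Over the 33 phosphodiesterase probe sets, 22 had the larger SD in GRK2+/- hearts, against 48.7% of all probe sets. Lymphocyte markers (7 of 8 measured, 2 of them below the median probe set) averaged 6.53 to 6.57 in GRK2+/- hearts and 6.57 to 6.62 in WT hearts, and their part in the Pde7a values was not tested.

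**Figure D2:**
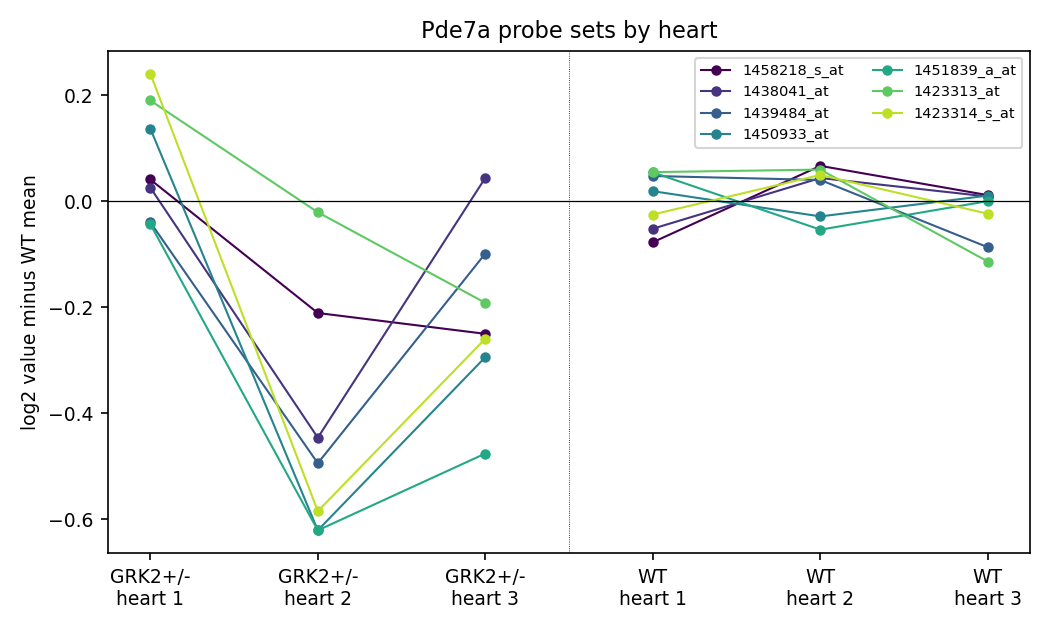
Log2 value minus the WT mean (vertical axis) of the 7 Pde7a probe sets in each of the 3 GRK2+/- and 3 WT hearts; each line joins the values of 1 probe set and implies no order of hearts. WT hearts stay close together, while GRK2+/- heart 2 lies at -0.62 on 2 probe sets and GRK2+/- heart 1 lies near or above the WT hearts.

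Pde8a encodes a cyclic AMP enzyme of high affinity. Its brighter probe set read 8.73, 8.94 and 8.86 in GRK2+/- hearts, against 8.89, 9.12 and 8.73 in WT hearts, with overlap and a difference of -0.070 ± 0.10. The dimmer one differed by 0.096 ± 0.084, also with overlap.

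Over the 33 probe sets, 14 differences were above 0 and 19 below, with a median of -0.065 against -0.021 over all probe sets. The groups did not overlap for 8 of 33 (24.2%), against 17.9% of all probe sets. Of these, 5 were higher in GRK2+/- hearts (6.76% of all probe sets were) and 3 lower (11.2%). All 5 of the higher ones belong to PDE4 genes (3 of Pde4b, 1 each of Pde4a and Pde4d), and the 3 lower ones are single probe sets of Pde1c, Pde2a and Pde3a. The count at an unadjusted p under 0.05 was also 8 (5 higher, 3 lower, against 5.44% and 7.4% of all probe sets), with Pde7a 1451839_a_at in place of Pde2a 1452202_at. These counts come from the contrast that chose the genes, and nothing is read from them. The lower 5th to upper 95th percentile of all probe sets of similar level (10 bins) was exceeded upward by the 3 Pde4b probe sets and 1435280_at of Pde4d, and downward by 1444067_at of Pde1c, 1450933_at and 1451839_a_at of Pde7a, and 1459311_at of Pde4d.

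**Figure D3:**
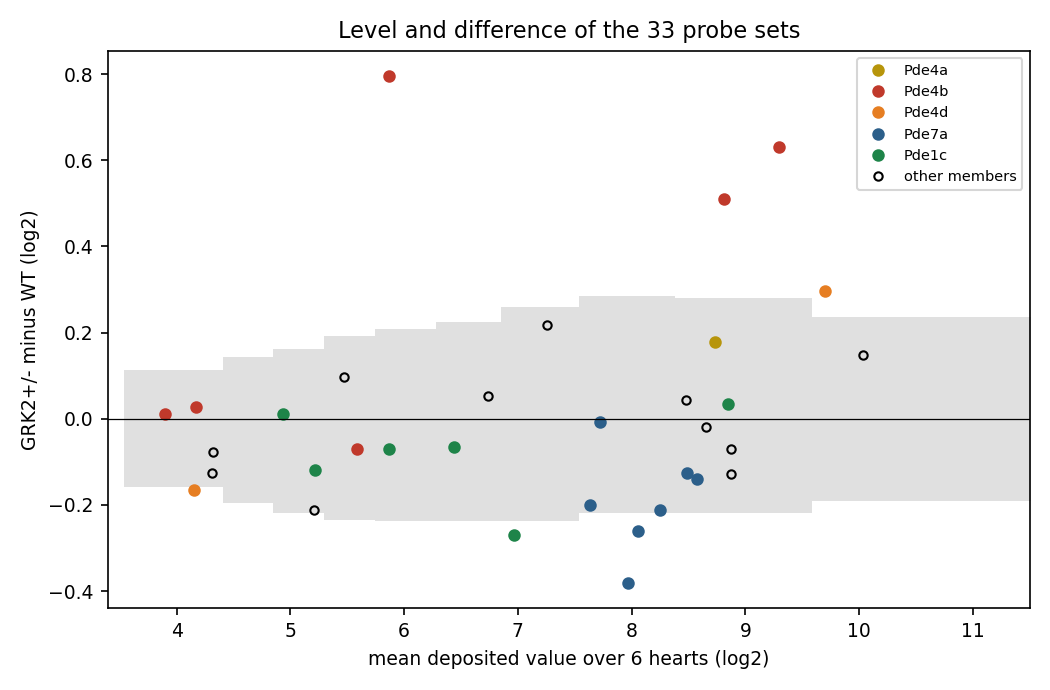
GRK2+/- minus WT difference (log2, vertical axis) against mean deposited value over the 6 hearts (log2, horizontal axis) for the 33 phosphodiesterase probe sets; grey bands hold the middle of all probe sets, from the 5th to the 95th percentile, in each of 10 bins of level. Of the Pde4b points 3 lie above the bands and 2 Pde7a points below them, while the Pde4a point and most others lie inside.

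Probe sets of 1 gene often disagreed. Of the 8 members with over 1 probe set, 7 had differences on both sides of 0, and Pde7a was the exception. Among all 9010 genes with over 1 probe set 58.2% disagreed in this way, and among those with 6 probe sets, as Pde4b and Pde1c have, 86.5% did. With probe sets at or above the median level only, 2 of 4 such members (Pde1c and Pde2a) disagreed, against 50.9% of all genes. Pde4b then had both of its probe sets above 0. Averaging all probe sets of a gene in place of the brightest gave 0.32 in place of 0.63 for Pde4b, 0.065 in place of 0.30 for Pde4d, -0.024 in place of 0.22 for Pde3a and 0.00030 in place of 0.15 for Pde2a. For Pde7a that mean was -0.19, against -0.14 for its brightest probe set. The letters before _at are the maker's: _a marks probes shared by transcripts of 1 gene, and _s and _x mark probes shared with other transcripts, so the Pde2a and Pde7a probe sets of those kinds may read more than 1 RNA.

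**Figure D4:**
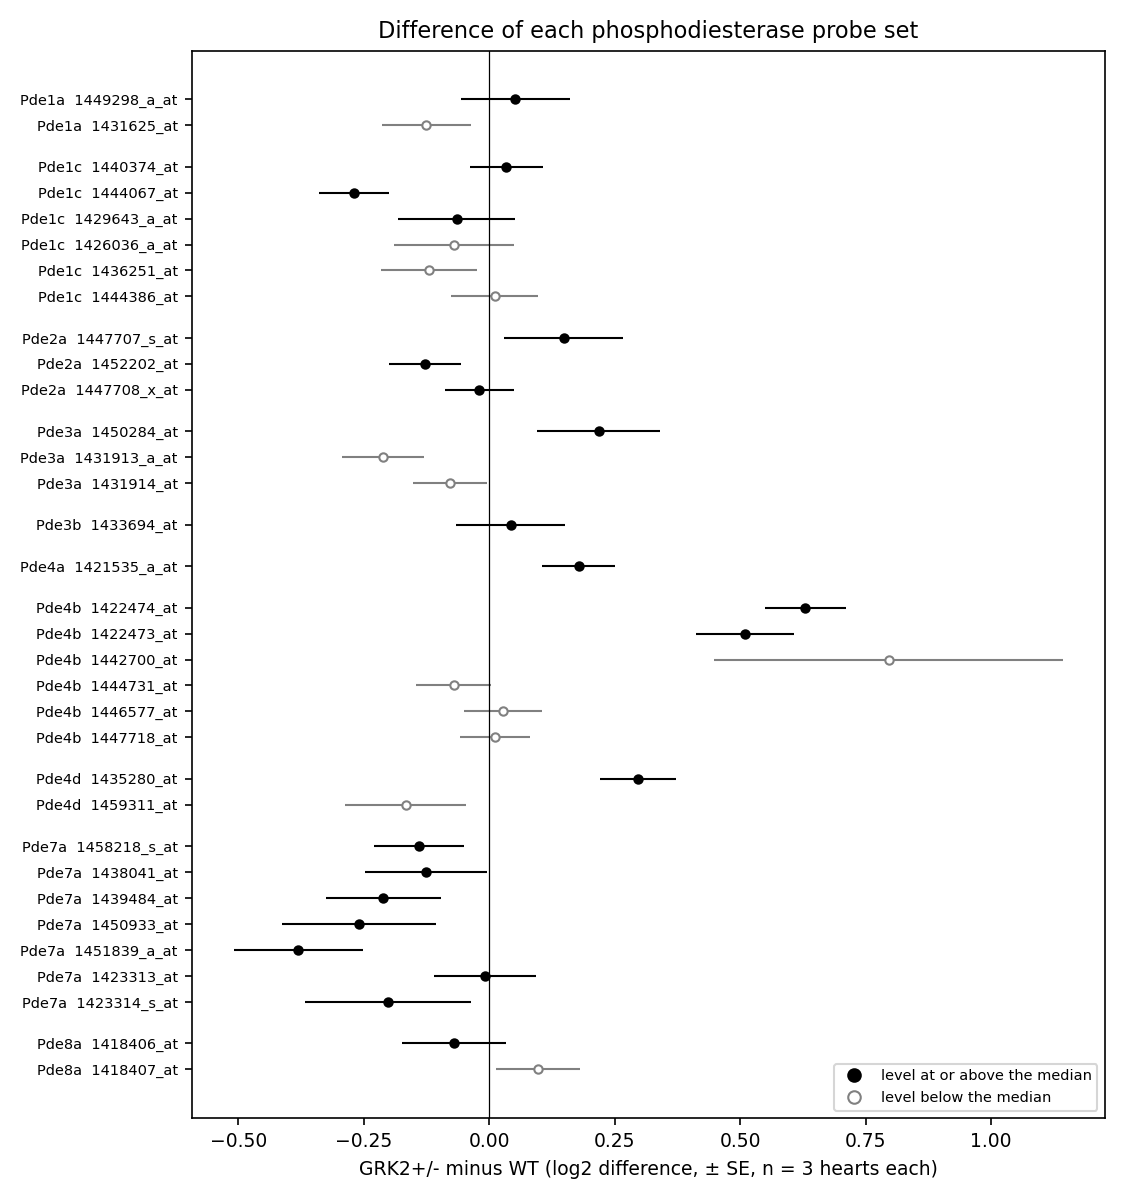
GRK2+/- minus WT difference (log2, horizontal axis) with its SE for each of the 33 probe sets, grouped by gene and ordered by level within a gene; filled points have a mean level at or above the median of all probe sets, open points lie below it. Pde4b reaches 0.63 and 0.51 on its filled points, Pde4d 0.30, and all 7 Pde7a points lie below 0.

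By the distance between the 6 values relative to the WT mean, the genes at or above the median gene level whose pattern was most like that of Pde4b 1422474_at were Wtip (distance 0.20), Auts2 (0.20), Meox2 (0.28), Apold1 (0.28) and Rreb1 (0.28), out of 9096 candidates over 6 hearts. Their differences ran from 0.48 ± 0.08 (Rreb1) to 0.71 ± 0.11 (Meox2). Choosing by distance makes their differences and patterns by heart resemble those of Pde4b, so the likeness supports nothing. Like Pde4b, Auts2 was highest in GRK2+/- heart 2, at 9.23, with 8.88 and 8.94 in GRK2+/- hearts 1 and 3, against 8.55, 8.46 and 8.21 in WT hearts.

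Other genes of the pathway were counted by gene, through the brightest probe set, in a limma fit over 18193 genes. In that fit 0 genes (0.0%) reached an adjusted p under 0.05, and 14.0% had an unadjusted p under 0.05, 6.3% higher and 7.7% lower in GRK2+/- hearts. Of the 13 other measured phosphodiesterases 1 was higher at that unadjusted p, 1 lower and 11 neither, with a median difference of -0.032 against -0.019 over all genes. Pde6d, a prenyl-binding subunit with no catalytic activity, averaged 9.25 in GRK2+/- hearts and 9.43 in WT hearts (-0.18 ± 0.07, adjusted p = 0.317). Pde7b, the close relative of Pde7a, averaged 10.27 in GRK2+/- hearts and 9.95 in WT hearts, a direction opposite to that of Pde7a (0.32 ± 0.14, adjusted p = 0.339). It was named after its values were seen, and its groups overlapped, with 9.95, 10.44 and 10.42 in GRK2+/- hearts against 9.89, 9.81 and 10.15 in WT hearts. Pde5a, which hydrolyses cyclic GMP, had 3 probe sets below the median level, with differences of -0.078 to 0.15 and overlap on each.

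Among 21 genes of cyclic nucleotide synthesis 2 were higher at an unadjusted p under 0.05, 1 lower and 18 neither (median 0.016). Gucy1a1, a subunit of the nitric oxide receptor that makes cyclic GMP, averaged 8.56 in GRK2+/- hearts and 8.04 in WT hearts (0.52 ± 0.10, adjusted p = 0.116), but 2 of its 3 probe sets pointed that way and the mean of the 3 gave 0.17. Gnai1, an inhibitory G protein subunit, differed by 0.36 ± 0.09 and the cyclase Adcy1 by -0.19 ± 0.08, the last at a level below the median probe set. The main cardiac cyclases Adcy5 and Adcy6 differed by 0.016 ± 0.065 and 0.017 ± 0.097 and were added after their values were seen. Of 16 effector genes 0 were higher, 2 lower and 14 neither (median -0.028). Both are Popeye proteins, which bind cyclic AMP in muscle membranes: Popdc2 (-0.17 ± 0.07) and Bves (-0.16 ± 0.07, with 1 of 2 probe sets in that direction).

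Of 18 measured partners and anchors of phosphodiesterases 4 were higher, 0 lower and 14 neither (median 0.092). The anchors of protein kinase A Akap12, Akap13 and Akap5 differed by 0.45 ± 0.13, 0.26 ± 0.07 and 0.22 ± 0.08, and the calcium release channel Ryr2 by 0.35 ± 0.08. Akap5 lay below the median probe set. For Akap13 5 of 7 probe sets pointed that way and the mean of the 7 gave 0.090. Adjusted p over all genes lay between 0.14 and 0.26 for these 4. Among 18 genes linked to cyclic AMP through CREB 6 were higher, 1 lower and 11 neither (median 0.14). Those named by rule were Fos (2.40 ± 0.78), Nr4a1 (1.46 ± 0.25), Dusp1 (0.53 ± 0.16), Fosb (0.52 ± 0.12) and Bdnf (0.44 ± 0.11), with adjusted p between 0.0943 and 0.244. Fos read 6.98, 9.00 and 11.18 in GRK2+/- hearts, against 6.78, 6.48 and 6.69 in WT hearts, so heart 1 lay close to the WT hearts and heart 3 far above. Without GRK2+/- heart 3 the difference was 1.34 for Fos and 0.31 for Dusp1. The lower one was Nr4a3 (-0.21 ± 0.09, with overlap). Fosb lay below the median probe set, and such genes also answer many stimuli other than cyclic AMP. Over that list GRK2+/- hearts 1, 2 and 3 stood at 0.12, 0.28 and 0.65 relative to the WT mean, and WT hearts between -0.012 and 0.017. Heart 3 was therefore highest on the list mean, which a few genes with large values in that heart raised. Besides Fos these were Nr4a1, at 10.18, 10.12 and 11.29 in GRK2+/- hearts, and Junb. Junb, among the 11 that were neither, read 6.70, 7.15 and 8.93 in GRK2+/- hearts, against 7.05, 6.66 and 6.83 in WT hearts. The mean thus does not stand for each gene of the list, and its relation to the Pde4b values was not tested.

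Markers of other cells in the tissue differed too, at the same unadjusted threshold. Neutrophil markers (5 of 7 measured) averaged 7.40 to 7.97 in GRK2+/- hearts and 6.70 to 6.81 in WT hearts, with 4 of 5 higher, from S100a9 (2.25 ± 0.33) and S100a8 (1.97 ± 0.29) to Csf3r (0.33 ± 0.10) and Mmp9 (0.27 ± 0.10). Mmp9 lay below the median probe set and differed by 0.16 without GRK2+/- heart 2, Csf3r differed by 0.22 without WT heart 2, and Cxcr2 differed by 0.11 with overlap. On that list GRK2+/- hearts 1, 2 and 3 stood at 0.64, 1.11 and 1.21 relative to the WT mean. In the same order Pde4b 1422474_at stood at 0.55, 0.77 and 0.56, and 1422473_at at 0.32, 0.69 and 0.52. The dimmer 1442700_at stood at 0.29, 0.26 and 1.84, highest in heart 3 as the list was. The relation of the list to these values was not tested.

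Endothelial markers (7 of 7 measured) averaged 9.28 to 9.49 in GRK2+/- hearts and 9.04 to 9.26 in WT hearts, with Kdr (0.55 ± 0.12), Cldn5 (0.55 ± 0.16) and Tek (0.23 ± 0.09) higher and 4 of 7 neither. Without GRK2+/- heart 2 Cldn5 differed by 0.36, and without WT heart 3 Tek by 0.14. Among those 4, Pecam1 differed by -0.12 ± 0.07, with every GRK2+/- heart below every WT heart. Heart 2 was the highest of the 6 on the list mean. Smooth muscle and pericyte markers (8 of 8) averaged 9.86 to 10.05 in GRK2+/- hearts and 9.69 to 9.79 in WT hearts, with Myh11 (0.47 ± 0.09), Notch3 (0.36 ± 0.10) and Abcc9 (0.23 ± 0.08) higher and 5 of 8 neither. Of those 5, Cnn1, below the median probe set, differed by -0.13 ± 0.09. Acta2, Tagln, Rgs5 and Kcnj8 differed by 0.11 to 0.31. Epicardial markers (5 of 5, 2 below the median probe set) averaged 6.08 to 6.17 in GRK2+/- hearts and 5.84 to 5.91 in WT hearts, with 3 higher, among them Wt1 (0.51 ± 0.12) and Upk3b (0.17 ± 0.07). Macrophage and monocyte markers (8 of 8) averaged 8.93 to 8.98 in GRK2+/- hearts and 8.96 to 9.05 in WT hearts, with 1, Cd163, lower (-0.29 ± 0.08) and 7 neither. Of those 7, Csf1r (0.13 ± 0.07), Mrc1 (0.14 ± 0.09) and Adgre1 (0.018 ± 0.095) had differences above 0, and Cd68, C1qa, C1qb and Ccr2 below 0. Every GRK2+/- heart lay above every WT heart for Csf1r, and below every WT heart for C1qa and C1qb. Fibroblast markers (7 of 7) averaged 9.94 to 10.09 in GRK2+/- hearts and 9.91 to 10.06 in WT hearts, with Col1a1 higher (0.30 ± 0.11, or 0.19 without WT heart 3) and 6 of 7 neither. Of those 6, Lum (-0.18 ± 0.09), Postn (-0.15 ± 0.13) and Dcn (-0.044 ± 0.080) had differences below 0. Of 5 atrial markers 2 were lower, Nppa (-1.20 ± 0.27) and Bmp10 (-0.19 ± 0.08, with overlap), and 3 neither, with a list median of 0.054. Those 3 had differences above 0: Myl4 (0.14 ± 0.07), Sln (0.054 ± 0.089) and Myl7 (0.11 ± 0.07, with every GRK2+/- heart above every WT heart). Of 8 cardiomyocyte markers Ryr2 was higher and 7 were neither. Among those 7, group means of Myh6, Actc1, Tnnt2, Tnni3, Myl3 and Pln were 14.57 to 15.02. The highest value of any tested probe set was 15.11, so a rise in these genes could be missed. Averaging all probe sets of a gene gave 0.19 for Myh6 and 0.15 for Ttn, but -0.020 for Tnnt2, -0.0255 for Myl3 and -0.0024 for Pln. None of 5 adipocyte, 7 lymphocyte and 4 nerve and glia markers had an unadjusted p under 0.05. The part of these cell types in the Pde4b, Pde4d and Pde2a values was not tested.

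**Figure D5:**
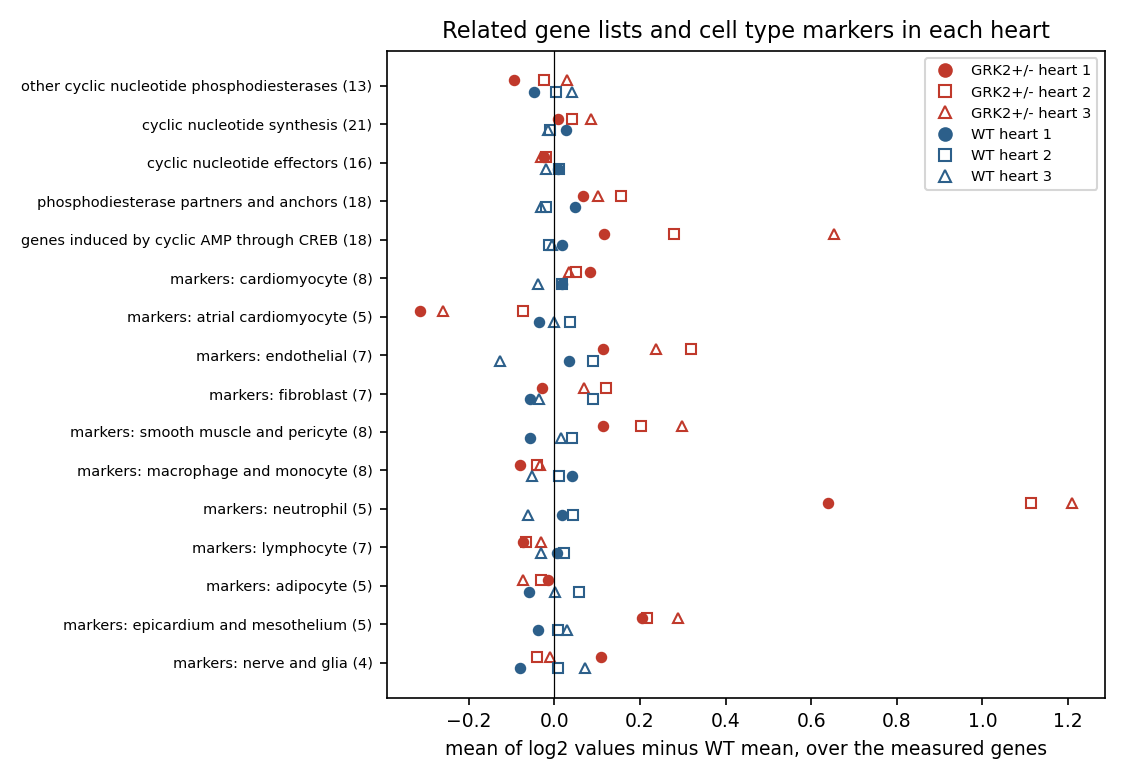
Mean over a list's measured genes (number in brackets) of the log2 value minus the WT mean (horizontal axis), in each heart, GRK2+/- in red above WT in blue. Neutrophil markers stand at 0.64 to 1.21 in GRK2+/- hearts, genes linked to cyclic AMP through CREB at 0.12 to 0.65, and the WT hearts of both lists between -0.062 and 0.043.

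For beta-actin, the array carries control probe sets at both ends of the transcript, and their difference, 3′ end minus 5′ end, reads RNA length and labelling. It was 0.90, 1.06 and 0.97 in GRK2+/- hearts, against 0.80, 0.80 and 0.73 in WT hearts. GRK2+/- heart 2 was the highest there, and the highest of its group for Gapdh (0.041). For pyruvate carboxylase and the transferrin receptor it was the lowest of its group, at 1.70 and 1.21. The same measure differed by 0.024 for Gapdh, 0.020 for pyruvate carboxylase and -0.095 for the transferrin receptor, so the shift was not shared by these 3 controls. For 18S RNA it was -0.27, with overlap. Its part in the unequal values of probe sets of 1 gene was not tested.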

How the data were processed

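Total RNA from 6 mouse hearts was hybridised to 1 Affymetrix array each. The authors deposited log2 values. RMA and limma are the tools named, per the submitters' processing notes. Versions: not given in the sources used here. The 64 control probe sets were left out of the fits. Probe sets were named from the platform annotation: 34945 had 1 symbol, 932 several and 9160 were not listed. Symbols were updated through a RefSeq table (GRCm38.p6). Differences are GRK2+/- minus WT from limma 3.58.1 in R 4.3.3 (lmFit, eBayes, two-sided, Benjamini-Hochberg over all probe sets or genes, threshold 0.05), tested on simulated data. Genes were read through their brightest probe set. The precision is limited by the number of arrays. Members, gene lists and tests were chosen with earlier results of these data known. Named by rule were all member probe sets, up to 5 genes per list with an unadjusted p under 0.05 and no overlap between groups, and the 5 genes nearest to Pde4b. Of 181 listed genes 162 were measured. Same-numbered hearts did not deviate together (correlations of -0.14, -0.020 and 0.0095), so the numbers were not used as pairs. Alternatives were quantile and median scaling, trended and robust variance priors, array weights, a replicate block, filters on level, the mean or most variable probe set of a gene, and leaving out each heart, which was extended to the listed genes after seeing the data.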

Additional observations from a re-analysis of the deposited data

How the results depend on the processing

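The median of all probe sets moved from -0.021 as deposited to 0.0079 with each array centred on its median. No direction of the 8 probe sets without overlap changed under any alternative, but only quantile and median scaling could have changed it. Where groups do not overlap, leaving out a heart or weighting arrays cannot reverse a difference, and the priors, the block and the filters leave it as it was. Over all 33, 21 kept their direction in every alternative that measured them and 12 did not. The count of all probe sets past the adjusted threshold was 22 with a prior that followed the level, in place of 0, and lay between 0 and 41 when 1 heart was left out. For genes it was 42 with that prior, 12 with array weights, 12 when genes were read through their most variable probe set, 1 with the replicate block, and between 0 and 56 when 1 heart was left out (56 without GRK2+/- heart 1). Pde4b was among the genes called with that prior, with array weights and without GRK2+/- heart 1, and 1422474_at among the 22 probe sets. It was the 1 member called in any alternative. The count of phosphodiesterase probe sets at an unadjusted p under 0.05 lay between 5 and 11 when 1 heart was left out, with 5 without WT heart 3, and between 6 and 8 under the other alternatives. With the replicate block this count was 8, as without it. Through its most variable probe set Pde4b differed by 0.80, and Pde4d by -0.17. Leaving out 1 heart moved 1422474_at to between 0.56 and 0.67, 1435280_at to between 0.25 and 0.34 and the Pde4a probe set to between 0.16 and 0.22. The causes of these shifts were not tested. Signal over background may be limiting for the 12 of 33 probe sets below the median level, and it was not measured here.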
